A study of Homo sapiens with 16 samples.

Results

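The Notch ligands and receptors were followed as 10 named genes: the Delta-type ligands DLL1, DLL3 and DLL4, the Jagged ligands JAG1 and JAG2, the receptors NOTCH1, NOTCH2, NOTCH3 and NOTCH4, and DLK1, a Delta-like membrane protein that lacks the domain by which canonical ligands bind Notch. They were taken by name from 35810 genes to which transcript estimates had been summed. The libraries were polyA RNA of pancreatic progenitor cells differentiated for 19 days from SA121, a human embryonic stem cell line, in a derivative carrying the NGN3-GFP reporter, which all groups shared. LatB, latrunculin B at 0.5 µM, binds actin monomers and depolymerizes actin filaments. Control 0 h (n = 3) was described as harvested before treatment, although its label also reads DMSO, and control 24 h (n = 2) received DMSO, the solvent. LatB was given for 3 h (n = 3), 6 h (n = 3), 12 h (n = 2) or 24 h (n = 3). The 3, 6 and 12 h groups were compared with control 0 h, and the 24 h group with control 24 h. The effect of LatB therefore cannot be told apart from that of the solvent or of time in culture at 3, 6 and 12 h. The first 3 of these comparisons share their control libraries. All libraries came from a single parental line, and the labels did not say whether replicates were separate cultures, so p-values measure only the spread between these libraries.

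Notch is a receptor that is activated by a ligand on a neighbouring cell. Pulling by the ligand-bearing cell exposes the receptor to cleavage, and the released intracellular part joins the DNA-binding protein RBPJ to switch on repressors of the HES and HEY families. In the embryonic pancreas this holds progenitors back from the endocrine fate. In a proposed model, cells that begin to express NEUROG3, the factor that starts endocrine differentiation, make Delta-type ligand and signal to their neighbours. The paper states that where the ligands and HES1 are expressed does not match the classical form of that model. Jagged ligands and DLL1 are also made by progenitors themselves. DLL3 differs from the other Delta ligands in that it acts mainly inside the cell that makes it and does not activate Notch on neighbours.

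Between 23609727 and 33515398 estimated reads were assigned per library. Of 9 listed pancreatic progenitor markers, 8 reached a mean of 1 TPM or more in every group, the exception being PTF1A. TPM is a transcript level corrected for transcript length and library depth. These 9 summed to 1840 to 2076 TPM in control 0 h, where GP2 alone was at 1309 to 1540 TPM. In the same control libraries 5 hepatic markers summed to 1057 to 1311 TPM. LatB 12 h replicate 2 stood apart: its 7 mesenchymal markers summed to 435.0 TPM, against 78.6 in replicate 1 and 39.2 to 110.4 in the other 14 libraries, and its 5 hepatic markers to 3561 TPM against 1285 in replicate 1. Results at 12 h are therefore also given without it where the call changed. These are bulk samples, so fewer cells making a transcript and less of it per cell cannot be told apart.

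DLK1 was by far the most abundant of the 10 genes. In control 0 h it reached 8356 ± 630 TPM (mean ± SD, n = 3), and over the 16 libraries it ranked between the 4th and the 19th most abundant gene. JAG1 followed at 194 ± 12.9 TPM, then the receptors NOTCH2 at 84.0 ± 3.95 TPM, NOTCH3 at 66.2 ± 5.63 TPM and NOTCH1 at 31.2 ± 2.19 TPM. DLL1 stood at 13.4 ± 0.646 TPM and JAG2 at 4.59 ± 1.33 TPM. DLL4, at 0.99 ± 0.138 TPM, and DLL3, at 0.751 ± 0.0724 TPM, were the scarcest. Each neighbouring pair in this order kept separate ranges over the 3 libraries. After 24 h of LatB the order was less distinct: DLL1 (28.6 to 45.3 TPM) overlapped NOTCH1 (32.6 to 37.1 TPM), and JAG1 (60.8 to 93.4 TPM) overlapped NOTCH3 (48.7 to 64.2 TPM). NOTCH4 was listed at 0 in every library. It lies in the major histocompatibility region, of which hg38 carries alternate copies, and between 2.92 and 3.17% of reads per library belonged to transcripts without a match in the annotation, so no level is given for it.

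Of the 10 genes, 9 passed the filter on low counts and were tested. Called means a Benjamini-Hochberg adjusted p under 0.05 over all 16705 genes in edgeR's quasi-likelihood test. At 3 h 2 of the 9 were called, both higher (DLL4 and NOTCH1), where 31.6% of all genes were called, 16.8% higher and 14.7% lower. At 6 h 5 were called, 4 higher and 1 lower, against 43.3% of all genes (22.9% higher, 20.4% lower). At 12 h the count was 7, with 4 higher and 3 lower, against 35.8% (19.1% higher, 16.8% lower), and it was again 7 without LatB 12 h replicate 2. The 24 h count was also 7, with 4 higher and 3 lower, against 40.8% (21.9% higher, 18.8% lower). A large part of the transcriptome thus differed between treated and control libraries, and the counts of members at 3 and 6 h were near that background. The median log2 fold change of the 9 genes was 0.20 at 3 h, 0.30 at 6 h, 0.20 at 12 h and 0.18 at 24 h, where the medians of all genes were 0.002, -0.01, 0.011 and 0.008.

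**Figure D1:**
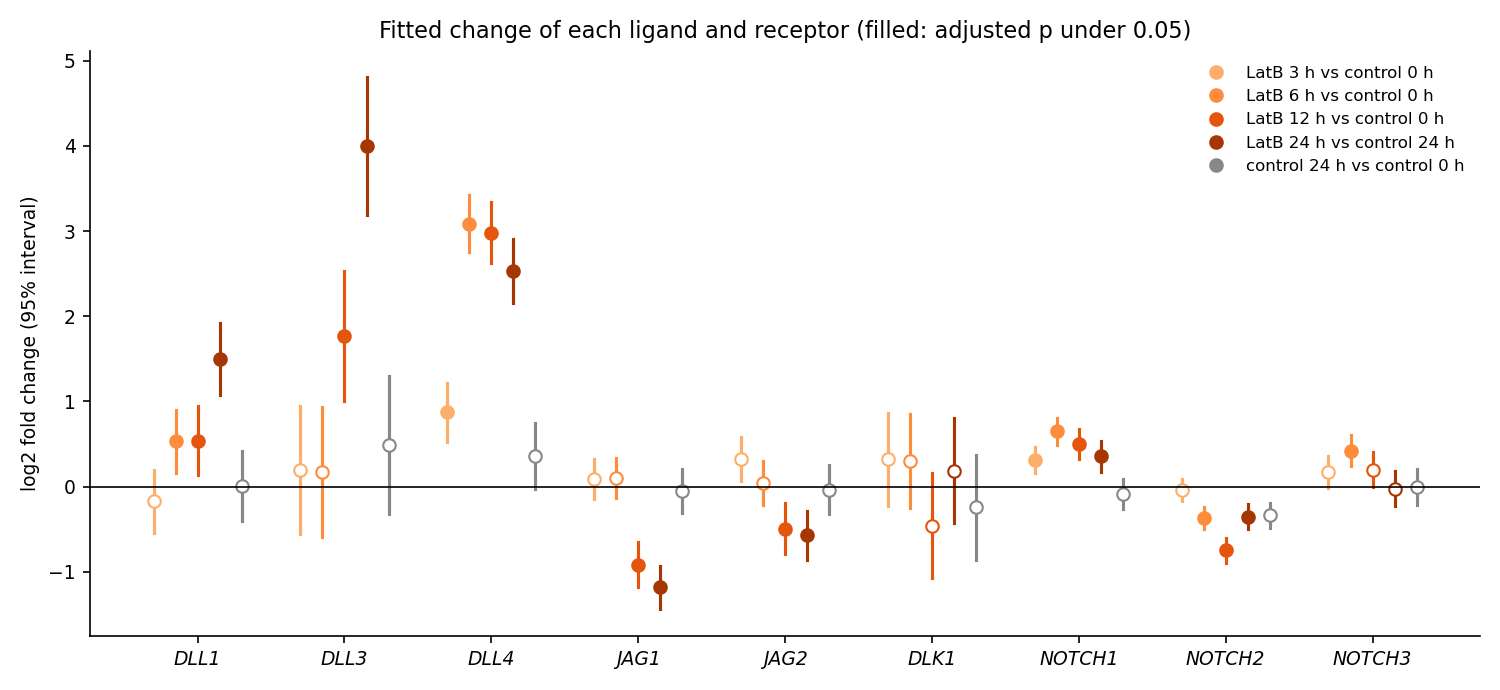
Fitted log2 fold change (y axis) of the 9 tested genes (x axis) in 5 comparisons, with bars for the 95% interval and filled points for adjusted p under 0.05. DLL4 was already higher at 3 h and reached 3.09 at 6 h, DLL3 reached 3.999 at 24 h, and JAG1 was lower at 12 and 24 h. The grey points compare the controls and are all open.

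The Delta-type ligands rose at different times. DLL4, best known from arterial endothelium, was the earliest. Its levels were 1.07, 0.83 and 1.07 TPM in control 0 h and 1.43, 1.74 and 1.46 TPM at 3 h. At 6 h they were 6.97, 7.04 and 7.14 TPM, at 12 h 6.85 and 7.24 TPM, and at 24 h 5.36, 8.02 and 5.99 TPM, against 1.28 and 1.25 TPM in control 24 h. Every treated library lay above every control library. The log2 fold change was 0.87 (SE 0.16, adjusted p = 0.000989) at 3 h and 3.09 (SE 0.156, adjusted p = 2.01e-08) at 6 h, an 8.49-fold difference. It was 2.98 (SE 0.165, adjusted p = 7.79e-08) at 12 h and 2.53 (SE 0.175, adjusted p = 6.47e-07) at 24 h. From 3 to 6 h DLL4 rose by a further 2.21 on the log2 scale (adjusted p = 2.08e-06), whereas from 6 to 24 h its difference of -0.20 was not called (adjusted p = 0.283). Without LatB 24 h replicate 2 that last difference was -0.39 and was called (adjusted p = 0.0212). The 3 h call was lost on the log2(TPM + 1) scale (0.35, adjusted p = 0.0539). The coding transcript DLL4-201 carried most of the increase, from a mean of 0.801 TPM in control 0 h to 6.53 TPM at 6 h. The summed level of 7 listed endothelial markers overlapped that of the control at 6 h. It was 2.96 to 3.43 TPM in control 0 h and 2.50 to 3.50 TPM at 6 h. CDH5, TEK, ERG and VWF each stayed at or below 0.182 TPM at 6 h. KDR was then at 1.565 to 2.357 TPM, PECAM1 at 0.231 to 0.675 TPM and TIE1 at 0.323 to 0.539 TPM. At 12 h the sums were higher, at 3.72 TPM in replicate 1 and 13.95 TPM in replicate 2. Of these markers, KDR was at 1.629 to 1.858 TPM in control 0 h and 3.003 to 11.12 TPM at 12 h. At 24 h the sums of replicates 1 and 3 (5.383 and 3.217 TPM) lay above control 24 h (2.305 and 2.08 TPM). That of replicate 2 lay below it. The part of endothelial cells in the DLL4 level was not tested.

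The promoter of DLL4, the Delta-type ligand that rose earliest, is shown beside that of JAG1, the main ligand that fell. Each is the 250 bases before the start site in RefSeq's GRCh38.p14 tables, read 5′ to 3′ on the gene's strand, with matches to the motifs searched in capitals. DLL4 is at chr15:40929090-40929339 (+) and JAG1 at chr20:10674000-10674249 (-).
DLL4: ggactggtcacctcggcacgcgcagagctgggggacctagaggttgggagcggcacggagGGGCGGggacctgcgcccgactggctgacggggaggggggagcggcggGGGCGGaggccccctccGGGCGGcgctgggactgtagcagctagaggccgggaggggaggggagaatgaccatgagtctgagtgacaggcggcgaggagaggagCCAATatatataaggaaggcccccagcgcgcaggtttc
JAG1: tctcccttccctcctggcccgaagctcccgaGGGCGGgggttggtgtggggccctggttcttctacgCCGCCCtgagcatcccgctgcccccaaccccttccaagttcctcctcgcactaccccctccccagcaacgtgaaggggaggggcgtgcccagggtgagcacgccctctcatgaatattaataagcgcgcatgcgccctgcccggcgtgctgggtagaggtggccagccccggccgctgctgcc
The motifs were searched on both strands: GTGGGAA for RBPJ, GGAATG for the TEAD factors, GGGCGG for the GC box and CCAAT for the CCAAT box. The DLL4 window held 3 GC boxes, at 190, 142 and 125 bases before the start, and a CCAAT box at 38 bases before it. The JAG1 window held 2 GC boxes, at 219 and 183 bases, and no CCAAT box. GC boxes occurred in 42.64% and CCAAT boxes in 32.01% of 35116 such windows. Neither the RBPJ letters, present in 5.43% of windows, nor the TEAD letters, present in 11.89%, occurred in any of the 7 member promoters matched (DLL4, JAG1, JAG2 and the 4 receptors), which says only that these letters are not in these windows. DLL1, DLL3 and DLK1 were not matched.

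DLL1, the ligand that marks early endocrine and other progenitors, rose later and less steeply. It stood at 13.4, 12.8 and 14.04 TPM in control 0 h and at 11.01, 10.5 and 11.4 TPM at 3 h, so the 3 h libraries were all below the controls, without passing the test (-0.17, adjusted p = 0.489). It was 16.4, 16.8 and 19.96 TPM at 6 h and 21.3 and 16.7 TPM at 12 h. At 24 h it reached 28.6, 45.3 and 36.7 TPM against 14.98 and 12.2 TPM in control 24 h, and the ranges were well separated. Fitted log2 fold changes were 0.53 at 6 h (SE 0.169, adjusted p = 0.0217), 0.54 at 12 h (SE 0.187, adjusted p = 0.0378) and 1.498 at 24 h (SE 0.194, adjusted p = 6.62e-05). The 24 h call held under every alternative run. The 6 h call did not: without LatB 6 h replicate 3 the value was 0.41 (adjusted p = 0.108), and leaving out control 0 h replicate 1 or 2 gave adjusted p = 0.0545 and 0.072. At 12 h 8 of 17 alternatives lost the call, and without LatB 12 h replicate 1 the value was 0.25 (adjusted p = 0.398). A single annotated transcript, DLL1-201, carried the gene.

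DLL3 was the last to appear and changed most. It was listed at 0.67 to 0.80 TPM in control 0 h, 0.78 to 0.85 TPM at 3 h and 0.68 to 0.87 TPM at 6 h, and control 24 h held 1.02 and 1.15 TPM. At 12 h it was 2.78 and 2.50 TPM, and at 24 h 9.09, 25.2 and 19.4 TPM. No treated library at 12 or 24 h overlapped its controls. On the log2 scale DLL3 differed from control by 0.18 at 6 h (adjusted p = 0.73), 1.77 at 12 h (SE 0.354, adjusted p = 0.00174) and 3.999 at 24 h (SE 0.375, adjusted p = 5.69e-06), a 15.98-fold difference. The coding transcript DLL3-202 went from a mean of 0.448 TPM in control 24 h to 13.3 TPM, whereas DLL3-201, the other coding transcript detected, went from 0.618 to 2.16 TPM. The 24 h libraries differed among themselves, and replicate 1 was the lowest for DLL1 and DLL3, as it was for DLL4 and DLK1. The summed level of 7 endocrine progenitor markers was also lowest there, at 59.7 TPM against 131.1 and 112.1 TPM in replicates 2 and 3 and 11.2 to 13.1 TPM in control 24 h. The part of these cells in the ligand levels was not tested. NEUROG3 itself was at 0.388 to 1.201 TPM in control 0 h, 2.64 to 3.34 TPM at 6 h, 6.91 to 12.8 TPM at 12 h and 22.6 to 50.2 TPM at 24 h.

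**Figure D2:**
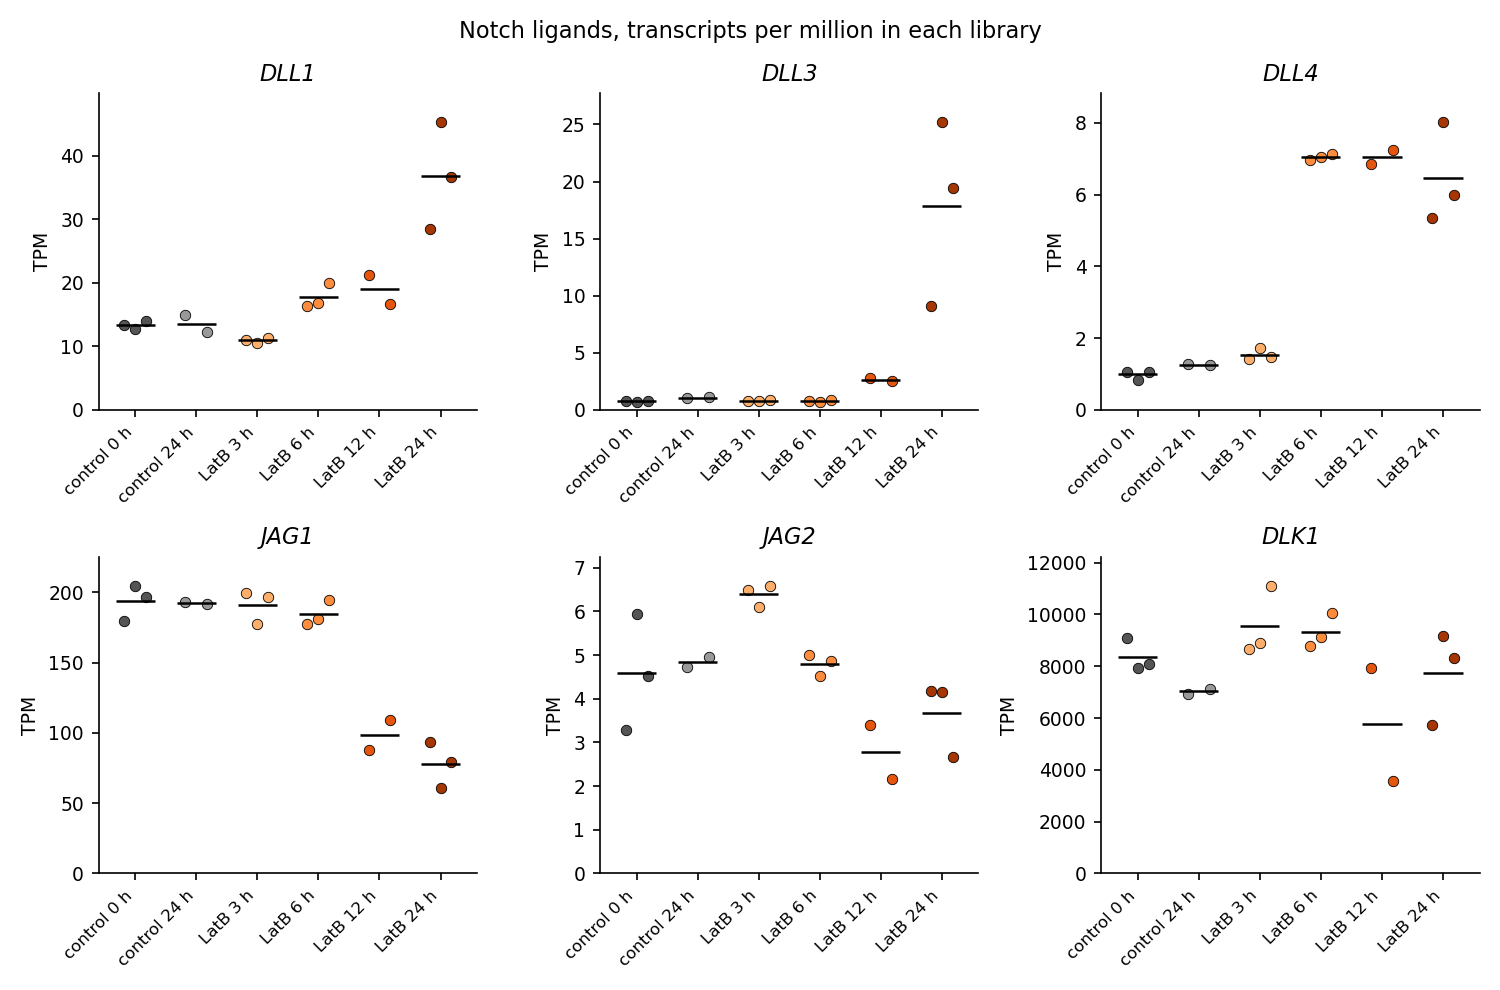
TPM (y axes, each from 0) of 5 canonical ligands and DLK1 in the 16 libraries by group (x axis), with a point per library and a line at the group mean. DLL4 was near 7 TPM in all 6 and 12 h libraries, DLL3 exceeded 9 TPM only at 24 h, and JAG1 was at or below 109 TPM in the 12 and 24 h libraries.

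JAG1, the Jagged ligand of the embryonic pancreas and liver ducts, went the other way. It was level for 6 h, at 179, 205 and 197 TPM in control 0 h, 199, 178 and 197 TPM at 3 h and 177, 181 and 195 TPM at 6 h. At 12 h it was 87.9 and 109 TPM, and at 24 h 93.4, 60.8 and 79.5 TPM against 193 and 192 TPM in control 24 h. These last groups did not overlap. On the log2 scale JAG1 differed from control by 0.09 at 3 h (adjusted p = 0.585; 95% interval -0.14 to 0.32), 0.10 at 6 h (adjusted p = 0.479), -0.92 at 12 h (SE 0.124, adjusted p = 9.39e-05) and -1.18 at 24 h (SE 0.119, adjusted p = 9.75e-06). Both late calls held under every alternative run. The full-length coding transcript JAG1-201 fell with the gene, from a mean of 154 TPM in control 24 h to 68.7 TPM.

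JAG2 was scarce and less certain. It was 3.30, 5.95 and 4.52 TPM in control 0 h, 6.50, 6.11 and 6.59 TPM at 3 h, 5.01, 4.52 and 4.87 TPM at 6 h and 3.41 and 2.17 TPM at 12 h. The 24 h libraries held 4.17, 4.16 and 2.68 TPM against 4.72 and 4.96 TPM in control 24 h. All of these were below their controls, and the 12 h range overlapped control 0 h. On read counts the log2 fold change was -0.49 at 12 h (adjusted p = 0.0139) and -0.57 at 24 h (adjusted p = 0.00416). On log2(TPM + 1) these were -0.55 (adjusted p = 0.064) and -0.34 (adjusted p = 0.231), and neither was called. Without LatB 12 h replicate 2 the 12 h value was -0.34 (adjusted p = 0.138), and without control 24 h replicate 1 the 24 h value was -0.49 (adjusted p = 0.056). Its TPM was split between the coding transcript JAG2-201, which held 13.4 to 62.7% of it per library, and short retained-intron transcripts such as JAG2-203, which held 23.7 to 46.6%.

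The makeup of the ligand pool changed with these opposite movements. JAG1 made up 90.7 ± 0.237% of the summed TPM of the 5 canonical ligands in control 0 h and 90.3 ± 0.69% in control 24 h (SD, n = 3 and n = 2). Its share was 85.9 ± 0.293% at 6 h, 75.6 ± 5.21% at 12 h and 54.6 ± 12.0% at 24 h. The summed level stayed near that of the controls up to 6 h (213.3 ± 13.8 TPM in control 0 h, 214.7 ± 11.4 TPM at 6 h) and was 130.1 ± 11.1 TPM at 12 h and 142.8 ± 1.94 TPM at 24 h. At 24 h DLL1 held 25.8 ± 5.64%, DLL3 12.5 ± 5.61% and DLL4 4.52 ± 0.944% of the pool. In control 24 h the same ligands held 6.37 ± 0.839%, 0.51 ± 0.047% and 0.592 ± 0.005%.

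**Figure D3:**
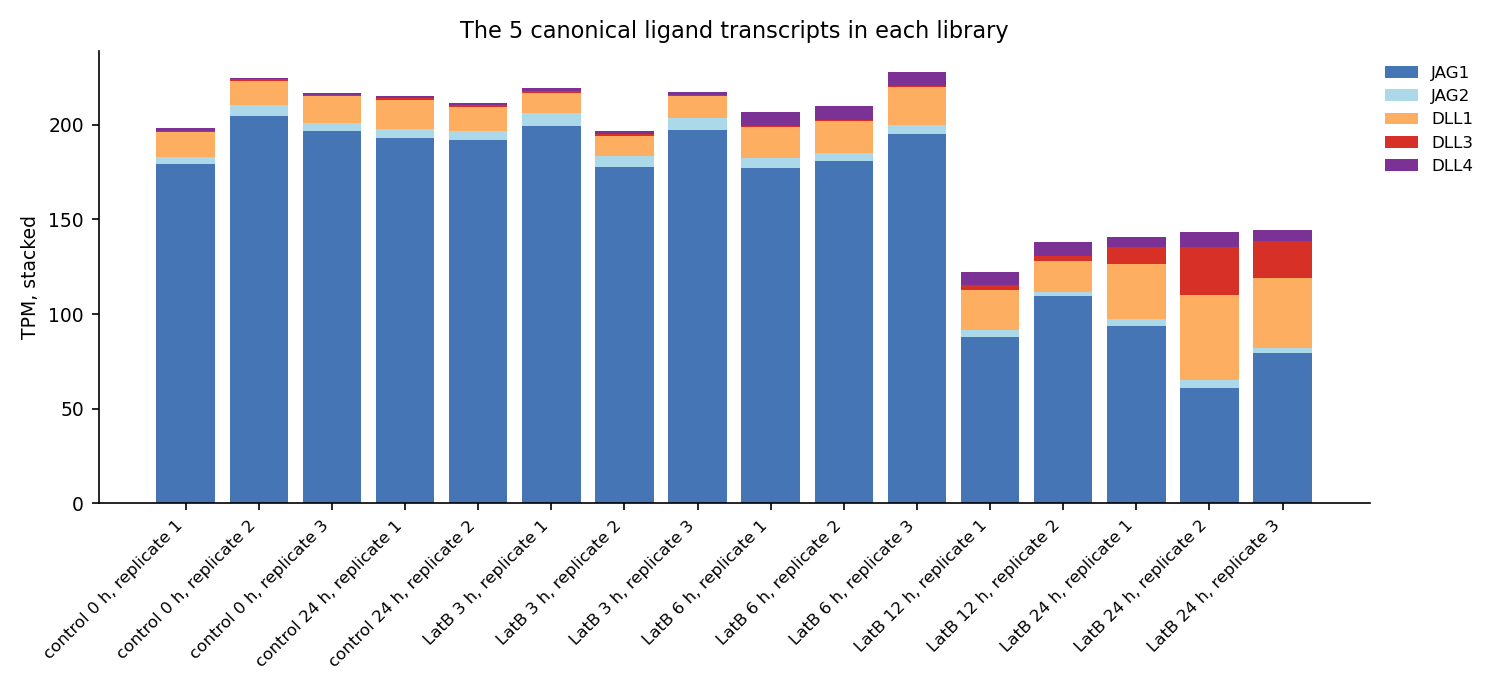
Stacked TPM (y axis) of the 5 canonical ligands in each of the 16 libraries (x axis). JAG1 fills most of every bar up to 6 h, the 12 and 24 h bars are shorter, and JAG1 makes up 42.4 to 66.5% of the 24 h bars.

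DLK1 passed the test in none of the comparisons, although it was called at 3 h (0.32, adjusted p = 0.0441) and 6 h (0.30, adjusted p = 0.00637) when the other groups were dropped from the fit. Its levels were 9079, 7919 and 8071 TPM in control 0 h, 8679, 8898 and 11106 TPM at 3 h and 8778, 9113 and 10064 TPM at 6 h. The 12 h libraries differed widely, at 7918 and 3586 TPM, the lower being replicate 2, and the 24 h libraries held 5725, 9156 and 8315 TPM against 6947 and 7131 TPM in control 24 h. Treated and control ranges overlapped at 3, 6 and 24 h, and the higher 12 h library all but met the lowest control. At 12 h the fitted difference was -0.46 (SE 0.288, adjusted p = 0.239). It was 0.06 without LatB 12 h replicate 2 and -1.27 (adjusted p = 0.000965) without replicate 1, so its direction rests on a single library. At 24 h it was 0.18 (95% interval -0.43 to 0.80, adjusted p = 0.639).

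Among the receptors, NOTCH1 was higher at every time of treatment. It stood at 29.0, 31.2 and 33.4 TPM in control 0 h, 37.3, 34.5 and 31.7 TPM at 3 h, 44.8, 43.4 and 42.8 TPM at 6 h and 42.9 and 42.4 TPM at 12 h. At 24 h it was 32.6, 37.1 and 34.9 TPM against 30.3 and 28.1 TPM in control 24 h. The 3 h libraries overlapped the controls, and the others did not. The log2 fold change was 0.31 at 3 h (adjusted p = 0.00521), 0.65 at 6 h (SE 0.073, adjusted p = 1.37e-05), 0.50 at 12 h (adjusted p = 0.000365) and 0.35 at 24 h (adjusted p = 0.00402). The 3 h value was 0.14 (adjusted p = 0.199) on log2(TPM + 1). From 6 to 24 h NOTCH1 fell by 0.39 on the log2 scale (adjusted p = 0.001).

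NOTCH2, the most abundant receptor transcript before treatment, fell. It was 88.5, 82.1 and 81.2 TPM in control 0 h, 74.6, 79.1 and 71.8 TPM at 3 h, 60.0, 59.8 and 57.8 TPM at 6 h and 48.9 and 47.1 TPM at 12 h. At 24 h it was 49.0, 51.5 and 48.1 TPM, but control 24 h, at 64.2 and 66.6 TPM, was itself below control 0 h. In TPM, all treated libraries from 6 h on lay below both control groups. On scaled read counts LatB 6 h replicate 2 lay above control 24 h replicate 1. The log2 fold change was -0.37 at 6 h (SE 0.06, adjusted p = 0.00023), -0.75 at 12 h (adjusted p = 4.28e-06) and -0.35 at 24 h (adjusted p = 0.000947). Between the controls it was -0.34 (adjusted p = 0.052), which was not called. Here the choice of control mattered: against control 24 h the 6 h value was -0.04 (adjusted p = 0.702), the 3 h value was 0.30 (adjusted p = 0.00396) in place of -0.04 (adjusted p = 0.696), and the 12 h value was -0.41 (adjusted p = 0.00097). NOTCH2 shares near-identical sequence with the NOTCH2NL genes, so its reads are uncertain to that extent. NOTCH2NLA, the highest of these, was at 33.4 to 36.9 TPM in control 0 h, 29.6 and 30.5 TPM in control 24 h and 14.6 to 19.2 TPM after 24 h of LatB, and NOTCH2NLB, NOTCH2NLC and NOTCH2NLR were at or below 10.4 TPM throughout.

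NOTCH3 was 63.1, 72.7 and 62.8 TPM in control 0 h, 68.1, 65.6 and 60.1 TPM at 3 h, 93.8, 76.8 and 80.5 TPM at 6 h and 80.0 and 65.8 TPM at 12 h. The 24 h libraries held 48.7, 59.6 and 64.2 TPM against 68.9 and 70.3 TPM in control 24 h. The 6 h libraries were above all controls, and 24 h libraries were below their controls in TPM. Fitted log2 fold changes were 0.42 at 6 h (SE 0.086, adjusted p = 0.0014), 0.20 at 12 h (adjusted p = 0.128) and -0.02 at 24 h (adjusted p = 0.874) on read counts. Without LatB 12 h replicate 2 the 12 h value was 0.37 (adjusted p = 0.00648). From 6 to 24 h NOTCH3 fell by 0.45 on the log2 scale (adjusted p = 0.00109). The coding transcript NOTCH3-201 held a mean of 42.5 TPM at 6 h and 33.2 TPM at 24 h.

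**Figure D4:**
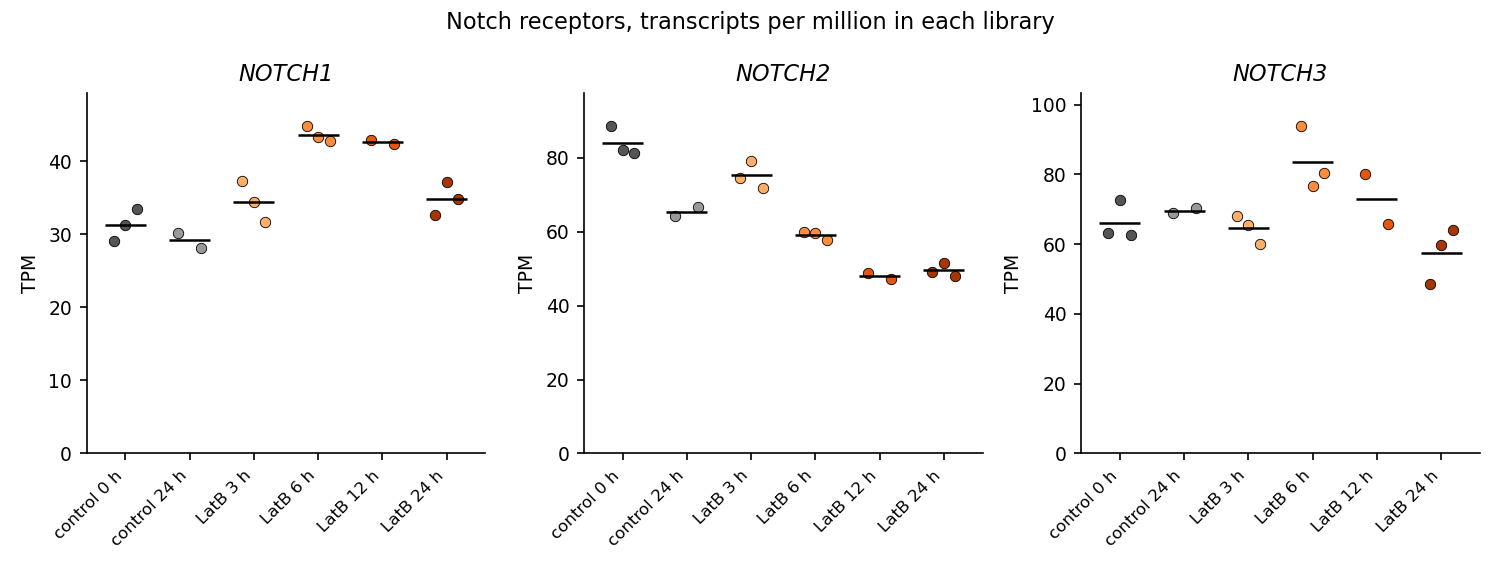
TPM (y axes, each from 0) of NOTCH1, NOTCH2 and NOTCH3 in the 16 libraries by group (x axis), with a point per library and a line at the group mean. The means of NOTCH1 and NOTCH3 are highest at 6 h, and NOTCH2 is below both control groups from 6 h on.

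The makeup of the receptor pool changed as well. NOTCH2 made up 46.3 ± 2.47% of the summed TPM of the receptors in control 0 h, NOTCH3 36.5 ± 2.27% and NOTCH1 17.2 ± 1.43% (SD, n = 3). The share of NOTCH2 was 43.2 ± 1.49% at 3 h and 29.4 ± 1.3% at 12 h. At 6 h NOTCH2 held 31.8 ± 1.51%, NOTCH3 44.8 ± 2.3% and NOTCH1 23.4 ± 0.792%. At 24 h the shares were 35.0 ± 2.47%, 40.4 ± 3.13% and 24.6 ± 0.774%, against 39.8 ± 0.75%, 42.4 ± 0.31% and 17.8 ± 1.06% in control 24 h. These shares count short transcripts too, and NOTCH3-201 held only 48.4 to 66.1% of the NOTCH3 TPM per library. By the longest coding transcript of each receptor, NOTCH2 led NOTCH3 in every group. At 6 h these transcripts had means of 57.3 TPM for NOTCH2, 42.5 TPM for NOTCH3 and 41.0 TPM for NOTCH1. In control 0 h the means were 79.3, 34.4 and 28.3 TPM.

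Between the 2 control groups edgeR called none of the 9 genes, where 0.251% of all genes were called. A single member, NOTCH2, had an unadjusted p under 0.05 there (0.000221), as did 1414 of all 16705 genes, and DESeq2 called it (-0.33, adjusted p = 0.000579). Within the treated groups, 4 of the 9 differed between 3 and 6 h (22.2% of all genes were called): DLL1, DLL4 and NOTCH1 rose and NOTCH2 fell. Between 6 and 24 h 7 of the 9 differed (37.9% of all genes): DLL1 and DLL3 rose, and JAG1, JAG2, NOTCH1, NOTCH2 and NOTCH3 fell. JAG1 fell by 1.33 on the log2 scale in this step (adjusted p = 1.7e-06), and DLL3 rose by 4.31 (adjusted p = 9.88e-07). The 24 h effect, against its own control, differed from the 3 h effect for 6 of the 9 genes, where 27.9% of all genes differed. The difference was positive for DLL1, DLL3 and DLL4 and negative for JAG1, JAG2 and NOTCH2.

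The wider pathway was read from a list of 52 genes in 7 roles, of which 51 passed the filter. It moved in both directions at each time: 12 higher and 11 lower at 3 h, 11 and 12 at 6 h, 11 and 10 at 12 h, and 12 and 12 at 24 h. Without LatB 12 h replicate 2, 23 genes in all were called at 12 h in place of 21. The same background shares apply as for the ligands and receptors. Its median log2 fold change was 0.01, 0.05, -0.08 and -0.04. Between the control groups edgeR called none.

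Of 6 genes that process ligands in the sending cell, 4 were called at 3 h and 3 at each of 6, 12 and 24 h. The shares of all genes called were 31.6, 43.3, 35.8 and 40.8%. NEURL1B, a ubiquitin ligase that sends Delta into endocytosis, was lower at 3 h (-0.87, SE 0.142) and higher at 12 h (0.92, SE 0.15). NEURL1, a relative, was lower at 3 h (-0.61, SE 0.124), and the endocytic adaptor EPN1 was higher at 6 h (0.34, SE 0.049). Of the noncanonical ligands, DLK2, a relative of DLK1, was higher at 24 h (0.60, SE 0.182) and DNER was lower (-0.84, SE 0.236).

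Of 9 genes that add sugars to the receptor, 3 were called at 3 h, 1 at 6 h, 2 at 12 h and 6 at 24 h, the last with 5 higher. Over all genes 31.6, 43.3, 35.8 and 40.8% were called at these times. The Fringe glycosyltransferases, which tune the receptor towards Delta or Jagged ligands, moved separately. MFNG was higher at 3 h (1.24, SE 0.318), while LFNG was lower at 3 h (-0.73, SE 0.197) and higher at 24 h (0.88, SE 0.22). LFNG stood at 3.45 and 3.799 TPM in control 24 h and at 4.07 to 7.15 TPM after 24 h of LatB. GXYLT2, which extends another sugar chain on Notch, was lower at 6 h (-0.48, SE 0.123).

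Of 9 genes for receptor cleavage, 3 were called at 3 h (2 higher, 1 lower; 31.6% of all genes were called), 5 at 6 h, all higher (43.3%), 7 at 12 h (5 higher, 2 lower; 35.8%) and 5 at 24 h (2 higher, 3 lower; 40.8%). PSEN2, a catalytic subunit of gamma-secretase, rose at 6 h by 0.46 (SE 0.085) on the log2 scale. FURIN, which cuts the receptor during its maturation, and ADAM10, which makes the ligand-induced cut, were lower at 24 h (-0.53, SE 0.101, and -0.43, SE 0.051).

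Of 10 genes of receptor turnover, 6 were called at 3 h (3 higher, 3 lower) and 5 at 6 h (2 higher, 3 lower). At 12 h 4 were called (1 higher, 3 lower), and at 24 h 2, both lower. The shares of all genes called were 31.6, 43.3, 35.8 and 40.8%. FBXW7, which targets the Notch intracellular part for degradation, was higher at 3 h (0.86, SE 0.051). DTX1, a Deltex ubiquitin ligase, was higher at 12 h (1.51, SE 0.346), whereas DTX3L was lower (-1.505, SE 0.214). NUMBL, a relative of the Notch inhibitor NUMB, was lower at 6 h (-0.60, SE 0.132).

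Of 7 genes of the nuclear complex, 4 were called at 3 h, all higher, where 31.6% of all genes were called. At each of 6, 12 and 24 h 3 were called (1 higher, 2 lower), against 43.3, 35.8 and 40.8%. RBPJ itself was higher at 6 h (0.27, SE 0.045) and 12 h (0.40, SE 0.05). The coactivator MAML2 was lower at 6 h (-2.002, SE 0.221), 12 h (-0.965, SE 0.237) and 24 h (-0.713, SE 0.226). MAML3, a second coactivator, was higher at 3 h (0.375, SE 0.108), lower at 6 h (-1.12, SE 0.112) and higher at 24 h (0.52, SE 0.121). MAML1 was estimated at no more than 62 reads in any library and at 0 in both 12 h libraries, and it was called in none of the comparisons with a control.

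Among 8 tested genes listed as Notch targets, 3 were lower and none higher at 3 h. Of all genes, 14.7% were lower and 16.8% higher at that time. At 6 h 4 were lower and 1 higher, against 20.4% and 22.9% of all genes. At 12 h 1 was lower and 1 higher, against 16.8% and 19.1% of all genes. At 24 h 1 was lower and 2 higher, against 18.8% and 21.9% of all genes. HES4 fell by 1.36 (SE 0.129) on the log2 scale at 12 h and HEYL by 2.17 (SE 0.376) at 6 h. NRARP, a feedback inhibitor and sensitive target, was lower at 3 h (-0.67) and higher at 24 h (0.36, SE 0.117). HES6, which opposes HES1 and is known as a gene of differentiating endocrine cells, was the gene counted as higher at 6 and 12 h. It rose by 1.61 (SE 0.161) at 24 h, where NRARP was the other higher gene. HES1, the main Notch target of pancreatic progenitors, was at 96.1 to 99.4 TPM in control 0 h, 103.6 and 109.7 TPM in control 24 h and 87.8 to 93.5 TPM after 24 h of LatB, and was not called in any comparison with a control.

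**Figure D5:**
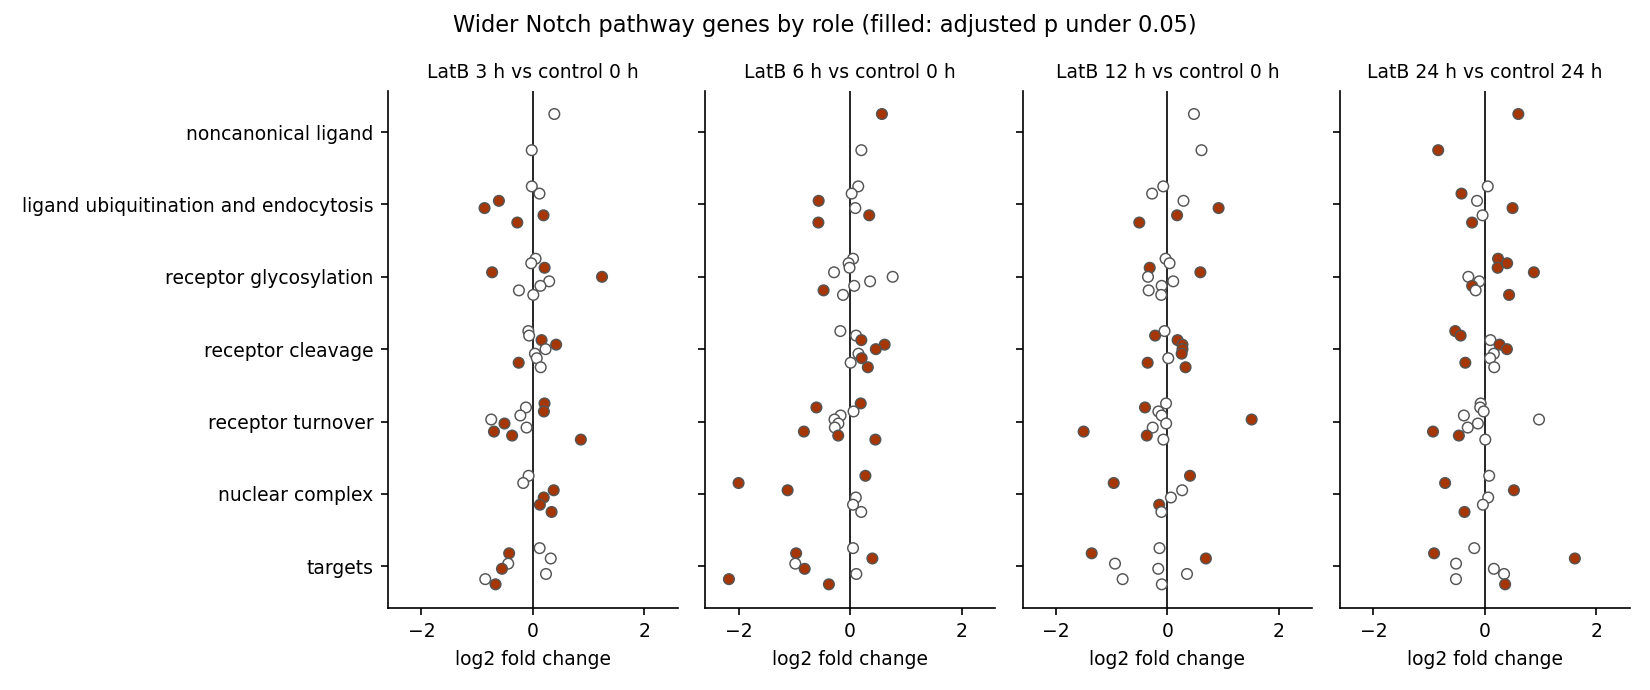
Log2 fold change (x axis) of the wider pathway genes by role (y axis) in 4 comparisons, with a point per gene, filled where adjusted p was under 0.05. MAML1 is left out for its low counts. The 5 filled receptor cleavage genes at 6 h lie to the right of 0, and 3 of the 5 at 24 h lie to the left.

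For each ligand and receptor, the genes whose pattern over the 16 libraries was most alike were found by Pearson's r of log2 CPM, read counts scaled to library size. These values describe the libraries, which share groups and hence a time course, and carry no test. For DLL4 they were CABP7 (r = 0.976), BEX5 (0.976) and FADD (0.971). For DLL3 they were OLFML2B (r = 0.993), PTGDR2 (0.992) and KIF19 (0.985), and for DLL1 SERTAD4BP (r = 0.957), FBXO10 (0.946) and IMPDH1 (0.946). For JAG1 they were CASD1 (r = 0.976), TMEM30A (0.974) and AHI1 (0.968), and for JAG2 ABCC5 (r = 0.962), ATP1B2 (0.958) and MINK1 (0.955). DLK1 was most like LGALS3BP (r = 0.962), MSR1 (0.962) and NEFM (0.95). Among the receptors, NOTCH1 was most like ZFP36L1 (r = 0.963), FOXA3 (0.952) and CLSTN3 (0.946), NOTCH2 like FLT1 (r = 0.969), LGI2 (0.961) and LIMS1 (0.952), and NOTCH3 like USP19 (r = 0.929), KDM5C (0.924) and EPN1 (0.921).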

How the data were processed

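PolyA-selected RNA was sequenced on an Illumina NextSeq 500. Per the labels, the authors deposited Salmon 1.3.0 estimated counts and TPM per transcript with hg38 and DESeq2 named beside it; the methods describe another route, and Salmon settings are not given in the sources used here. Of 177456 transcripts, 165533 matched GENCODE release 44 (151923 in the same version) and were summed to 35810 genes. Salmon's effective length, another deposited value, was used only for the length-offset alternative. The deposited table of the authors' own comparisons, with 16 columns of values per sample, was not used.

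Estimated counts were rounded, filtered by group (filterByExpr), scaled by TMM and fitted with edgeR 4.0.16 (R 4.3.3) over all 16 libraries and 6 groups with no covariates. The quasi-likelihood test was adjusted by Benjamini-Hochberg over 16705 genes. Standard errors are the log2 fold change over the square root of F. Alternatives used DESeq2 1.42.0 and limma 3.58.1. The fit was tested on simulated counts. Replicate pairs all differed by more than sampling noise. Named genes were all members, and per role of the wider list the called genes with the 2 largest rises and 2 largest falls over the 4 comparisons with a control, other named genes being described after their values were seen; HES1 and MAML1 are among these. A gene that this rule also names is not reported here. The members and lists were chosen with earlier results of these data known. MEG3, next to DLK1, was not analysed here. Python 3.11.15 and matplotlib 3.10.9 were used for levels and figures.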

Additional observations from a re-analysis of the deposited data

Results flagged for a closer look

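For 6 genes the late and the early effect of LatB were unequal, by a test of that difference in the same edgeR model: the late effect is 24 h over its DMSO control, the early one 3 h over control 0 h. On the log2 scale the difference (24 h minus 3 h) was 1.67 for DLL1 (adjusted p = 0.000462), 3.801 for DLL3 (adjusted p = 0.000154) and 1.66 for DLL4 (adjusted p = 0.000247). It was -1.27 for JAG1 (adjusted p = 0.000118), -0.90 for JAG2 (adjusted p = 0.00264) and -0.32 for NOTCH2 (adjusted p = 0.0177). The JAG2 difference was not called on either TPM scale or with the length offset, and the NOTCH2 difference was lost without scaling, on log2(TPM + 0.1) and without control 24 h replicate 2. The effects were measured against different controls.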

How the results depend on the processing

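Each call was refitted under 12 other settings and with each of the 16 libraries left out. For single genes, 1222 values kept their direction and side of the threshold or had a sign that changed without being called in either fit, 19 became called, 36 lost the call and 1 reversed, NOTCH2 at 3 h against the other control (0.302). Of the 9 ligands and receptors, the count called at 3 h, 2 as reported, was 5 when other groups were dropped from the fit, 1 on log2(TPM + 1) and 1 with a length offset. Between the controls it was 1 in DESeq2 and 1 with a mean of at least 50 counts, NOTCH2 in both. Of the wider list, the count at 3 h, 23 as reported, was 14 on log2(TPM + 1), 13 on log2(TPM + 0.1), 14 with transcripts of the same version, 13 with the length offset and 15 to 22 with a library left out (lowest without LatB 3 h replicate 2). At 12 h it was 21 as reported, 8 with other groups dropped, 12 on both TPM scales and 12 with the length offset. At 24 h, 24 as reported, it was 14 to 25 with a library left out, lowest without control 24 h replicate 1. Between the controls it was 1 with other groups dropped. The cause was not tested. Without scaling, the share of called genes that were higher was 36.1% at 3 h and 37.7% at 6 h, against 53.3% and 52.8% with it, and from 6 to 24 h it was 73.8% against 50.1%. Replicate numbers did not pair the libraries: over 36 same-numbered pairs the median correlation of deviations was -0.083, and 11 exceeded 0.1. With a replicate block the counts of ligands and receptors called were 2, 5, 7 and 7 at 3, 6, 12 and 24 h, as without it. DLL3 and DLL4 rest on few reads before they rise, and groups of 2 limit the 12 h and control 24 h values.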
